A study of Mus musculus with 8 samples.

Results

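The genes described here are the 7 inhibitors of cyclin-dependent kinases (CDK) of the Cip/Kip and Ink4 families, in the mouse's long-term stem cells of the blood (LT-HSC). They were chosen by name: Cdkn1a (p21), Cdkn1b (p27) and Cdkn1c (p57) of Cip/Kip, and Cdkn2a (p16 and p19Arf), Cdkn2b (p15), Cdkn2c (p18) and Cdkn2d (p19Ink4d) of Ink4. All 7 were measured, each by 1 probe set, among 29915 genes paired with a symbol. The sorting gate on bone marrow took CD150+ cells that were CD48-, Flk2-, Sca+, cKit+ and Lin-, and their RNA was hybridised to 8 Affymetrix arrays, 2 for each of 4 groups. CD169DTR/+ mice (called CD169-DTR) carry 1 allele of Siglec1, which encodes the macrophage lectin CD169, that drives a receptor for diphtheria toxin, and WT mice lack it. The groups were CD169-DTR 2 Gy, CD169-DTR non-irradiated, WT 2 Gy and WT non-irradiated. Mice of all 4 groups, WT included, had received diphtheria toxin, which depletes CD169+ macrophages in CD169-DTR mice only. At 72 h after the toxin they were given 2 Gy of total body irradiation or a sham treatment, and LT-HSC were taken 5 days later. The 2 arrays of a group came from separate experiments, as the design text states. No label shows which arrays of different groups shared an experiment, and how many mice gave 1 array is not stated in the labels.

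Inhibitors of CDK decide whether a cell leaves G1 for S phase. The Ink4 proteins bind CDK4 and CDK6 and keep D cyclins from them. The Cip/Kip proteins bind whole cyclin and kinase complexes, mainly those of CDK2 with cyclins E and A. Both actions keep the Rb pocket proteins active and E2F target genes low. In blood stem cells, mouse genetics ties p57, p27, p21 and p18 to quiescence and self-renewal, and p53 induces Cdkn1a after DNA damage.

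Values are log2 intensities made with RMA (robust multi-array averaging) by the authors, so 1 unit is a doubling. The median per array lay between 4.76 and 4.93. Differences were tested with limma, and a gene passed at an adjusted p under 0.05 over 30294 probe sets. In bulk RNA, fewer cells of a type and less RNA per cell cannot be told apart. The labelled cell type was checked on 9 measured LT-HSC markers, none of which was below the median of every array. Kit stood at 14.25 and 14.25 in CD169-DTR 2 Gy, 14.77 and 14.66 in CD169-DTR non-irradiated, 14.36 and 14.33 in WT 2 Gy and 14.93 and 14.89 in WT non-irradiated LT-HSC. Of 7 monocyte and macrophage markers, 5 (Siglec1, Adgre1, Csf1r, Mertk and C1qa) were below the median on every array, so the arrays do not measure the depletion itself. The first principal component (21.7% of the variance) set apart replicate 2 of CD169-DTR 2 Gy (40.3) and replicate 1 of WT 2 Gy (29.5). The second component (19.7%) put these arrays on opposite sides, at 36.7 and -45.3. For the Cdkn1a rise, Cdkn2d and the marker lists beside them, values without both are also given.

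Cdkn1a was the inhibitor gene that rose after irradiation. Its log2 value was 13.24 and 13.23 in CD169-DTR 2 Gy and 9.79 and 9.34 in CD169-DTR non-irradiated LT-HSC. It was 13.06 and 13.41 in WT 2 Gy and 7.86 and 8.39 in WT non-irradiated LT-HSC. All 4 irradiated arrays lay above all 4 non-irradiated arrays, by at least the gap between 13.06 and 9.79. As an average of both strains the log2 difference was 4.39 ± 0.17 (SE), or 21.0-fold (95% interval 15.9 to 27.7, adjusted p = 0.00205 in limma). This was the smallest p and the second largest rise among the 30294 probe sets. Of the 7 inhibitors 1 passed in this comparison, as did 0.0099% of all probe sets.

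**Figure D1:**
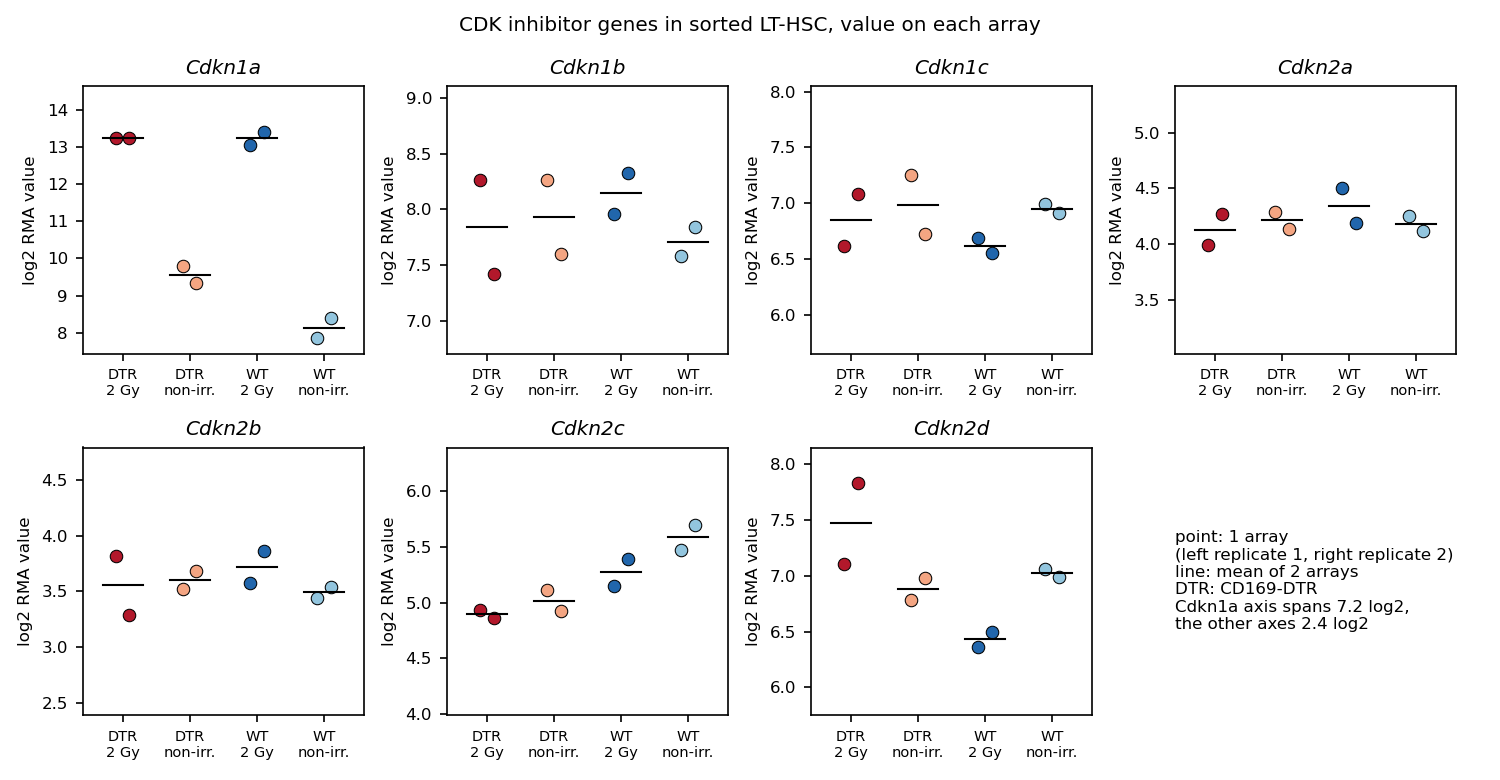
The log2 RMA value of each of the 7 genes is plotted on the y axis for the 4 groups on the x axis, with 1 point per array and a line at the mean of 2 arrays. For Cdkn1a the irradiated arrays sit between 13.06 and 13.41 and the non-irradiated arrays between 7.86 and 9.79, while no other gene shows such a gap.

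Within the strains, the log2 rise of Cdkn1a was 3.67 ± 0.24 (SE) in CD169-DTR and 5.11 ± 0.24 in WT. The rise passed in WT (adjusted p = 0.0073 in limma) and did not in CD169-DTR (adjusted p = 0.0622), where it ranked first of all probe sets by its p. In WT 1 of the 7 genes passed against 0.0099% of all probe sets. In CD169-DTR none passed, against 0.0% of all probe sets, and 2 of the 7 had an unadjusted p under 0.05 against 6.77% of all probe sets. The call in WT was lost without WT non-irradiated replicate 1 (4.85, adjusted p = 0.075), with only the WT arrays in the fit (adjusted p = 0.125) and without both far 2 Gy arrays (5.29, adjusted p = 0.0981). The average of both strains passed without each of the 8 arrays in turn (4.26 to 4.52 log2, adjusted p of 0.00672 to 0.0233) and was not called without both far 2 Gy arrays (4.48, adjusted p = 0.0689).

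The irradiated levels of Cdkn1a were alike and the non-irradiated levels were not. The mean was 13.24 ± 0.01 in CD169-DTR 2 Gy and 13.24 ± 0.25 in WT 2 Gy LT-HSC (SD, n = 2 each), and the difference had a 95% interval of -0.57 to 0.57 log2 in limma. Among non-irradiated LT-HSC the mean was 9.57 ± 0.32 in CD169-DTR and 8.13 ± 0.37 in WT, and the arrays of the 2 strains did not overlap. This log2 difference of 1.44 ± 0.24 (SE), or 2.71-fold with an interval of 1.83 to 4.03, had an unadjusted p of 0.00065 and did not pass over all probe sets (adjusted p = 0.936 in limma). None of the 7 genes passed here, against 0.0% of all probe sets. The irradiation difference of Cdkn1a was thus smaller by 1.44 ± 0.34 log2 in CD169-DTR than in WT (adjusted p = 0.839 in limma, unadjusted p = 0.00421, where 0.0% of probe sets and none of the 7 genes passed), a value that uses the same non-irradiated arrays. The order of the groups was therefore both irradiated groups, then CD169-DTR non-irradiated, then WT non-irradiated. The last step of that order did not pass the test, and the irradiated groups differed by less than their spread.

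**Figure D2:**
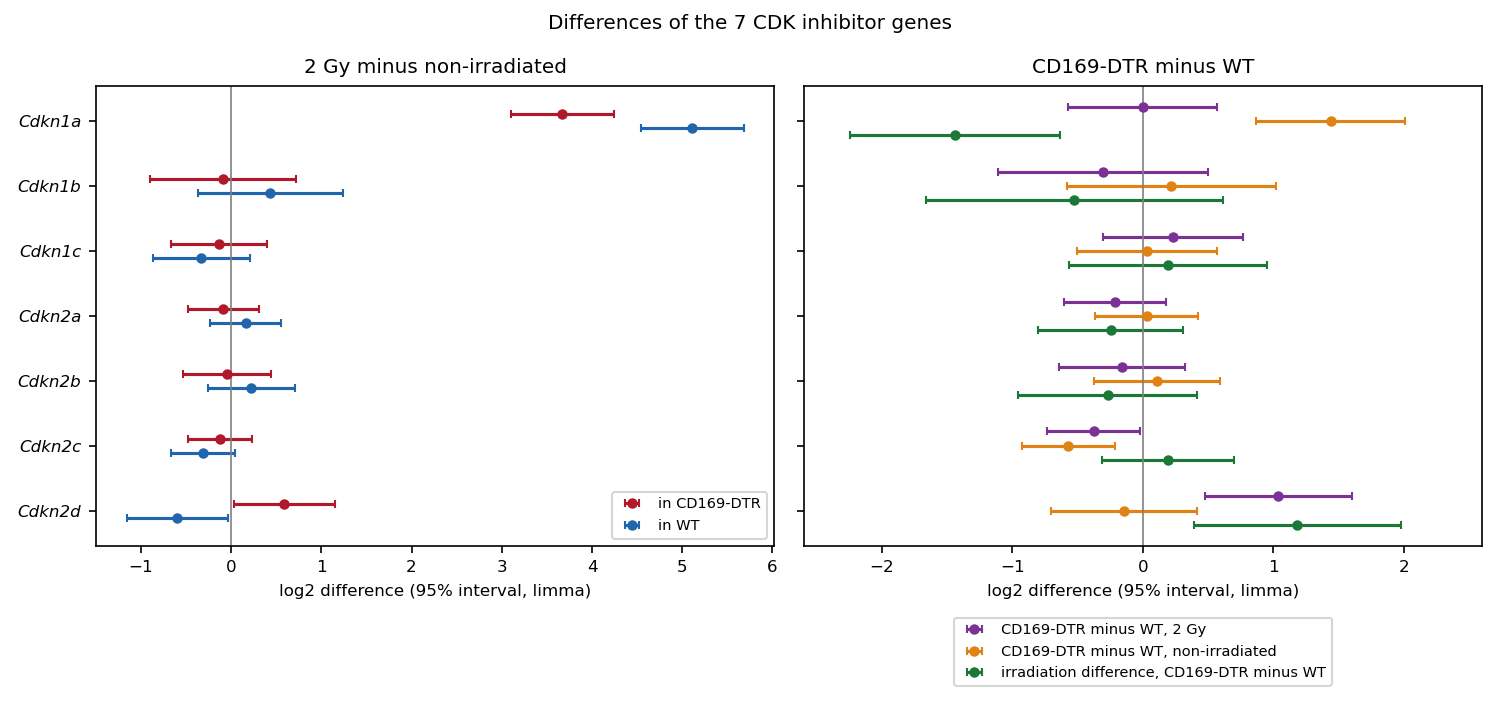
The x axes show log2 differences with 95% intervals from limma for each of the 7 genes, on the left for 2 Gy minus non-irradiated in CD169-DTR and in WT, and on the right for CD169-DTR minus WT. Cdkn1a lies at 3.67 and 5.11 on the left. On the right its non-irradiated difference lies at 1.44, its 2 Gy difference at 0.00 and the difference between the irradiation differences at -1.44.

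Marker lists also differed between the strains without irradiation, some higher and some lower in CD169-DTR. Of 10 measured neutrophil and granulocyte-monocyte progenitor genes, 10 were higher in CD169-DTR non-irradiated than in WT non-irradiated LT-HSC, with a median of 0.97 log2 and none called. Their mean log2 value per array was 9.37 and 10.01 in CD169-DTR non-irradiated and 7.93 and 8.89 in WT non-irradiated LT-HSC. For irradiation, the same list was higher in 4 of 10 genes in CD169-DTR (median -0.17) and in 10 of 10 in WT (median 1.91). Its mean level was 10.05 and 9.0 in CD169-DTR 2 Gy and 10.19 and 10.91 in WT 2 Gy LT-HSC. Without both far 2 Gy arrays, 7 of 10 were higher in CD169-DTR (median 0.30) and 10 of 10 in WT (median 2.66). None of the 10 was below the median on every array. Other lists were lower in CD169-DTR non-irradiated than in WT non-irradiated LT-HSC, again with none called. In that comparison 1 of 9 LT-HSC markers (median -0.19) and 1 of 6 megakaryocyte genes (median -0.12) were higher. Of 6 mast cell and basophil markers 0 were higher (median -0.52). Of 5 measured genes excluded by the gate 4 were higher (median 0.24). The part of these lists in the Cdkn1a values was not tested.

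Other markers moved with irradiation, and none passed the test. Cd48, whose protein the gate excluded, was at 13.47 and 13.0 in CD169-DTR 2 Gy, 11.05 and 12.54 in CD169-DTR non-irradiated, 12.95 and 12.14 in WT 2 Gy and 11.24 and 10.98 in WT non-irradiated LT-HSC. Within each strain its irradiated arrays lay above the controls, and the average difference was 1.44 ± 0.35 log2 (SE, adjusted p = 0.393 in limma). Flt3, the gene of Flk2, went the other way, at 5.85 and 6.48 in CD169-DTR 2 Gy and 7.37 and 8.22 in CD169-DTR non-irradiated LT-HSC. It was at 6.45 and 6.65 in WT 2 Gy and 7.99 and 7.12 in WT non-irradiated LT-HSC. Every irradiated array of Flt3 lay below every control. Of 5 measured genes excluded by the gate, 2 were higher on average (median -0.075 log2), and 2 without both far 2 Gy arrays (median -0.03). Hlf, a transcription factor of stem cells, was at 12.44 and 12.54 in CD169-DTR 2 Gy, 12.94 and 12.95 in CD169-DTR non-irradiated, 12.7 and 12.53 in WT 2 Gy and 13.33 and 13.18 in WT non-irradiated LT-HSC. All its irradiated arrays lay below all its controls (-0.55 ± 0.09 log2, adjusted p = 0.235), as did those of Kit (-0.52 ± 0.08, adjusted p = 0.209). Of the 9 LT-HSC markers 3 were higher after irradiation on average, with a median of -0.24 log2. Slamf1, the gene of CD150, was among those higher. Its mean was 11.335 in CD169-DTR 2 Gy, 11.205 in CD169-DTR non-irradiated, 12.005 in WT 2 Gy and 11.275 in WT non-irradiated LT-HSC. The mean of Mecom was 8.285 in CD169-DTR 2 Gy and 8.005 in its controls, and 8.38 in WT 2 Gy and 8.45 in its controls. Of 6 megakaryocyte genes, 5 were higher in CD169-DTR (median 0.57) and 5 in WT (median 0.40). Without both far 2 Gy arrays the LT-HSC median was -0.29, and 6 megakaryocyte genes were higher in CD169-DTR (median 0.95) and 3 in WT (median -0.09). The part of these markers in the Cdkn1a values was not tested.

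The promoter sequences of Cdkn1a are shown because this gene carried the response, and because p53 is known to act through a site upstream of it. RefSeq gives the gene 2 transcript starts on chromosome 17 of GRCm38.p6, 2790 bases apart on the + strand, and the array has 1 value for both. The 250 bases before each start follow. In the upstream window the capitals mark a match of 20 bases to the p53 consensus (a pair of decamers with no spacer, at most 1 mismatch), and in the downstream window they mark GC boxes (GGGCGG) and a TATA motif (TATAA).
Cdkn1a upstream, chr17:29090729-29090978: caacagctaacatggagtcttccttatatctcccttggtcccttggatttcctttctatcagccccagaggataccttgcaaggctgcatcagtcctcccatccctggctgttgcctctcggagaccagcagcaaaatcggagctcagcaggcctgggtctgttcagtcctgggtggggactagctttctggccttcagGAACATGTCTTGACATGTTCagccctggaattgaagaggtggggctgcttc
Cdkn1a downstream, chr17:29093519-29093768: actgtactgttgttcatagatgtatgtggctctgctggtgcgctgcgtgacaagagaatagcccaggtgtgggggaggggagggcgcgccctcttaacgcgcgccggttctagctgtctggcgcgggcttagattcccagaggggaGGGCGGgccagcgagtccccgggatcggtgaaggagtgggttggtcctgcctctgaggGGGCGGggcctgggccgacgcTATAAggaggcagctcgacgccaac

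The p53 match begins 51 bases before the upstream start. With at most 1 mismatch this consensus occurs in 25 of 32851 promoter windows of the same length (0.0761%), both strands being the same for it, and with none in 3. The downstream window holds GC boxes 104 and 46 bases before its start and TATAA 25 bases before it. These are common, since GGGCGG occurs on either strand in 32.7% of windows and TATAA in 22.8%. The upstream window also holds 1 TATAA, on the - strand and not marked above, and no GC box. Promoter windows were found for 6 of the 7 inhibitors, Cdkn1c having none in the table, and 1 of the 6 holds the p53 match. Among the 11 genes with a window in the list of other p53 targets, 1 holds it, Ccng1 (cyclin G1), 195 bases before its start on the - strand at chr11:40755462-40755481.
Ccng1 site: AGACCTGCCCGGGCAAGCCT

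These matches are descriptions of the letters only. A gene without one in this window may hold one elsewhere.

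Cdkn1b encodes p27, which binds CDK2 complexes and whose protein is removed through the Skp2 ubiquitin ligase. Its log2 value was 8.26 and 7.42 in CD169-DTR 2 Gy and 8.26 and 7.60 in CD169-DTR non-irradiated LT-HSC. It was 7.96 and 8.33 in WT 2 Gy and 7.58 and 7.84 in WT non-irradiated LT-HSC. The irradiated arrays lay above the controls in WT only, and the arrays of each CD169-DTR group spanned more than the group means differed. The average log2 difference was 0.17 ± 0.24 (SE), with a 95% interval of -0.40 to 0.74 (adjusted p = 0.804 in limma).

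Cdkn1c encodes p57, the product of an imprinted gene that is tied to the quiescence of mouse LT-HSC. Its log2 value was 6.62 and 7.08 in CD169-DTR 2 Gy and 7.25 and 6.72 in CD169-DTR non-irradiated LT-HSC. It was 6.69 and 6.55 in WT 2 Gy and 6.99 and 6.91 in WT non-irradiated LT-HSC. Both WT 2 Gy arrays lay below both WT controls, and the CD169-DTR groups overlapped. The difference in WT was -0.33 ± 0.22 log2 (SE) with an interval of -0.87 to 0.21 (adjusted p = 0.715 in limma), and the average of both strains was -0.23 ± 0.16 (adjusted p = 0.656).

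Cdkn2a and Cdkn2b lie 11669 bases apart on chromosome 4. Cdkn2a has 2 RefSeq starts 12427 bases apart, from which p19Arf, an inhibitor of Mdm2, and p16Ink4a are made, and its probe set gives 1 value for both. It lay below the median of every array, between 3.99 and 4.50 log2. The values were 3.99 and 4.27 in CD169-DTR 2 Gy, 4.29 and 4.14 in CD169-DTR non-irradiated, 4.50 and 4.19 in WT 2 Gy and 4.25 and 4.12 in WT non-irradiated LT-HSC. Cdkn2b, the gene of p15, lay below the 25th percentile of every array, between 3.29 and 3.86 log2. At such dim values a change of either gene may not be detectable. The average irradiation difference was 0.04 ± 0.12 log2 (SE) for Cdkn2a and 0.09 ± 0.14 for Cdkn2b (adjusted p of 0.916 and 0.829 in limma). For Cdkn2a the sign of this average turned with cyclic loess (-0.042) and with median centring (-0.03).

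Cdkn2c encodes p18, which in mice limits the self-renewal of blood stem cells. Its log2 value was 4.93 and 4.86 in CD169-DTR 2 Gy and 5.11 and 4.92 in CD169-DTR non-irradiated LT-HSC. It was 5.15 and 5.39 in WT 2 Gy and 5.47 and 5.70 in WT non-irradiated LT-HSC. All 4 CD169-DTR arrays lay below all 4 WT arrays. Among non-irradiated LT-HSC the difference, CD169-DTR minus WT, was -0.57 ± 0.15 log2 (SE), with an unadjusted p of 0.00723 and an adjusted p of 0.981 in limma. After 2 Gy it was -0.38 ± 0.15 log2, with an unadjusted p of 0.0418 and an adjusted p of 0.648. Strains that did not overlap occurred for 3 of the 7 genes without irradiation, against 31.0% of all probe sets, and for 2 after 2 Gy, against 34.9%.

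Cdkn2d encodes p19Ink4d, the Ink4 protein whose level varies with the cell cycle in cultured mouse cells. Its log2 value was 7.11 and 7.83 in CD169-DTR 2 Gy and 6.78 and 6.98 in CD169-DTR non-irradiated LT-HSC. It was 6.36 and 6.50 in WT 2 Gy and 7.06 and 6.99 in WT non-irradiated LT-HSC. The irradiated arrays lay above the controls in CD169-DTR and below them in WT, and the single highest array was CD169-DTR 2 Gy replicate 2. The irradiation difference was 0.59 ± 0.23 log2 (SE) in CD169-DTR and -0.60 ± 0.23 in WT, with adjusted p of 0.713 and 0.617 in limma. The difference between them, 1.19 ± 0.33 log2, had an unadjusted p of 0.00998 and an adjusted p of 0.874. Without CD169-DTR 2 Gy replicate 2 the difference in CD169-DTR was 0.23 and the difference between the strains 0.83, and without both far arrays they were 0.23 and 0.76. After 2 Gy, Cdkn2d was 1.04 ± 0.23 log2 higher in CD169-DTR than in WT (unadjusted p of 0.00349, adjusted p = 0.562), and none of the 7 genes passed there, against 0.0% of all probe sets. This difference was 0.68 without CD169-DTR 2 Gy replicate 2 and 0.61 without both far arrays. Mast cell and basophil markers differed in the same direction after 2 Gy: 5 of 6 were higher in CD169-DTR than in WT LT-HSC (median 0.82 log2) and none was called. Without both far arrays 5 of 6 were higher (median 0.54). For irradiation, 6 of 6 were higher in CD169-DTR (median 0.89) and 1 of 6 in WT (median -0.64). Without both far arrays these counts were 6 of 6 (median 1.01) and 3 of 6 (median -0.05), while Cdkn2d was still lower after irradiation in WT (-0.525). The mean log2 value of these markers was 8.47 and 7.93 in CD169-DTR 2 Gy, 7.38 and 6.21 in CD169-DTR non-irradiated, 6.98 and 8.02 in WT 2 Gy and 8.19 and 7.86 in WT non-irradiated LT-HSC. In both CD169-DTR groups the replicate with the higher marker mean had the lower Cdkn2d value, and in both WT groups the higher. None of the 6 was below the median on every array, and their part in the Cdkn2d values was not tested.

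Over all 7 genes, the groups did not overlap for 2 genes in CD169-DTR after irradiation, against 31.2% of probe sets, and for 6 in WT, against 44.7%. In WT these were Cdkn1a, Cdkn1b and Cdkn2b with the 2 Gy arrays higher, and Cdkn1c, Cdkn2c and Cdkn2d with them lower. With all 8 arrays only Cdkn1a separated the irradiated from the non-irradiated arrays, against 5.5% of probe sets. For Cdkn2d the arrays moved in opposite directions in the strains without overlap, as they did for 4.44% of probe sets. An unadjusted p under 0.05 was met by 2 of the 7 genes in WT (7.81% of probe sets), 1 on average (9.23%), 2 between strains without irradiation (4.38%), 2 after 2 Gy (7.57%) and 2 for the difference between irradiation differences (5.17%). The median average difference of the 7 genes was 0.04 log2, with 4 higher and 3 lower, beside 0.06 over all probe sets, of which 63.7% were higher. Except for Cdkn1a no member was called in any of the 6 comparisons.

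**Figure D3:**
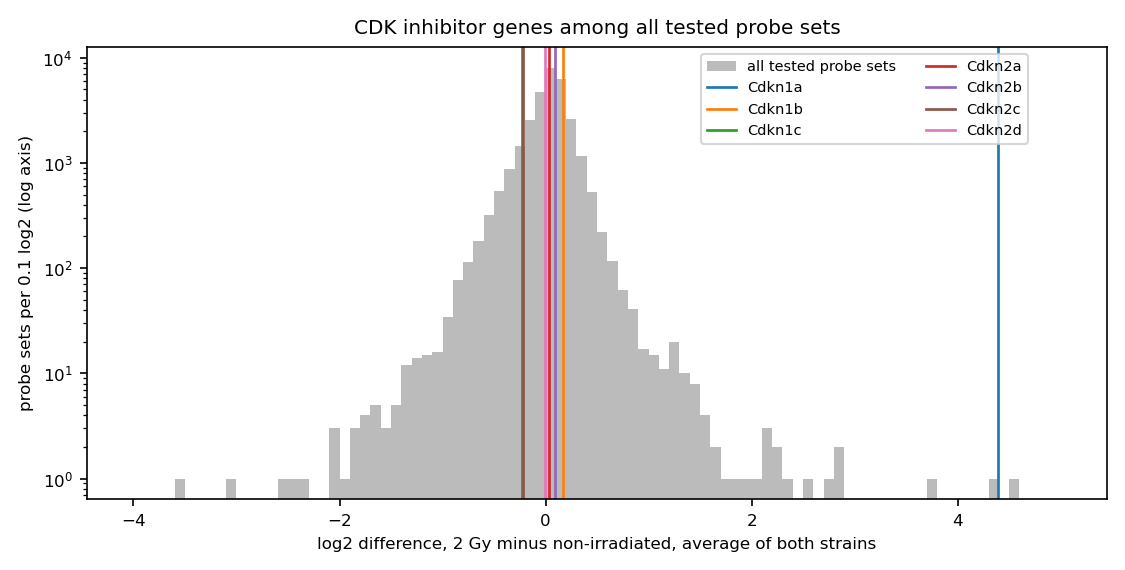
The histogram gives the number of probe sets (log axis) in bins of the average log2 difference between 2 Gy and non-irradiated LT-HSC, for 30294 probe sets, with a line at each inhibitor gene. Cdkn1a lies at 4.39 and the other 6 genes lie between -0.23 and 0.17, inside the bulk.

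The genes on which the inhibitors act showed no called change in any comparison. Among 9 measured kinases and cyclins, 5 were higher and 4 lower in the average of both strains, with a median of 0.01 log2. Ccnd3 (cyclin D3, a partner of CDK4 and CDK6) was at 8.69 and 8.58 in CD169-DTR 2 Gy, 8.87 and 9.11 in CD169-DTR non-irradiated, 8.68 and 8.37 in WT 2 Gy and 9.0 and 8.74 in WT non-irradiated LT-HSC. Its irradiated arrays all lay below its controls (-0.35 ± 0.12 log2, SE, adjusted p = 0.487 in limma). Ccna2 (cyclin A2) had 0.25 ± 0.09 and Ccne2 (cyclin E2) 0.36 ± 0.17 log2. For Ccne2 the difference was -0.06 in CD169-DTR and 0.77 in WT, and the average was 0.16 without WT non-irradiated replicate 1.

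Among 8 pocket protein and E2F genes, 4 were higher and 4 lower (median -0.01). E2f1, an activator of S phase genes, was at 7.66 and 7.78 in CD169-DTR 2 Gy, 7.24 and 7.36 in CD169-DTR non-irradiated, 7.52 and 7.52 in WT 2 Gy and 7.25 and 7.23 in WT non-irradiated LT-HSC. The irradiated arrays all lay above the controls (0.35 ± 0.08 log2, SE, adjusted p = 0.365 in limma). E2f5, a repressor, had -0.43 ± 0.21 and E2f2 0.20 ± 0.15 log2, and with 1 array left out they ran between -0.59 and -0.27 and between 0.07 and 0.34. Of 16 measured genes of S phase and mitosis, 13 were higher on average (median 0.10 log2), beside 63.7% of all probe sets. Of the 16, 0 had an unadjusted p under 0.05, a threshold that 9.23% of all probe sets met. Within the strains, 13 were higher and 3 lower in CD169-DTR (median 0.16), and 7 higher and 9 lower in WT (median -0.07). As averages of both strains, Mki67, a proliferation marker, had 0.41 ± 0.20, Tyms (thymidylate synthase) 0.17 ± 0.11 and Aurka (a mitotic kinase) -0.27 ± 0.28 log2. After 2 Gy, 15 of the 16 were higher in CD169-DTR than in WT LT-HSC, 5 with an unadjusted p under 0.05 against 7.57% of probe sets, and none was called. Without irradiation 14 of the 16 were also higher in CD169-DTR, 1 with an unadjusted p under 0.05 against 4.38% of probe sets. The median strain difference was 0.37 log2 after 2 Gy and 0.19 without irradiation, and the median difference between irradiation differences was 0.08.

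Genes that act on the inhibitors were likewise without a call. Of 9 ubiquitin ligase genes that remove Cip/Kip proteins, 4 were higher and 5 lower (median -0.02). Cul4b, a cullin, had 0.36 ± 0.10, Ddb1, its adaptor, -0.47 ± 0.17, and Skp2, which recognises p27, 0.36 ± 0.21 log2 (SE). The average of Skp2 was 0.12 without WT non-irradiated replicate 1. Ddb1 was at 11.22 and 11.75 in CD169-DTR 2 Gy, 10.89 and 11.5 in CD169-DTR non-irradiated, 10.34 and 10.25 in WT 2 Gy and 11.52 and 11.53 in WT non-irradiated LT-HSC. Its irradiation difference was 0.29 ± 0.25 log2 in CD169-DTR, where the groups overlapped, and -1.23 ± 0.25 in WT, where they did not. The difference between them was 1.52 ± 0.35 log2 (unadjusted p of 0.00384, adjusted p = 0.839 in limma). Of 11 activators of the inhibitor genes, 9 were lower (median -0.17 log2). Foxo3, a transcription factor that induces Cdkn1b, had -0.28 ± 0.08 (adjusted p = 0.445 in limma), Smad3, which carries TGF-beta signals to Cdkn2b, -0.31 ± 0.09 (adjusted p = 0.426) and Klf4 -0.25 ± 0.10 log2. For Foxo3 and Smad3 all irradiated arrays lay below all controls. Of 11 repressors, mostly Polycomb genes that silence the Cdkn2a locus, 6 were higher and 5 lower (median 0.00). Rnf2, a Polycomb ubiquitin ligase, had -0.38 ± 0.16, Suz12 0.22 ± 0.14 and Id1 0.40 ± 0.22 log2. With 1 array left out, Suz12 ran between 0.10 and 0.33 (lowest without WT 2 Gy replicate 2) and Id1 between 0.15 and 0.65 (lowest without CD169-DTR non-irradiated replicate 2).

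The list of other p53 targets of arrest and feedback was chosen with the p53 response in these arrays already known. On average of both strains 1 of its 11 genes passed, against 0.0099% of all probe sets. In this list 9 were higher and 2 lower (median 0.51 log2), beside 63.7% of all probe sets higher (median 0.06). Phlda3, an inhibitor of Akt, was at 8.35 and 8.46 in CD169-DTR 2 Gy, 7.08 and 7.15 in CD169-DTR non-irradiated, 8.61 and 8.66 in WT 2 Gy and 7.37 and 7.24 in WT non-irradiated LT-HSC. It rose 2.48-fold as an average of both strains (interval 2.16 to 2.84, adjusted p = 0.0244 in limma), and this call was lost in 10 of 16 alternatives (adjusted p up to 0.212). The irradiated arrays of Phlda3, Ccng1 and Zmat3 (an RNA-binding protein) all lay above the controls. These were the 3 of the 11 genes whose groups did not overlap, against 5.5% of all probe sets. For Ccng1 and Zmat3 the differences were 0.72 ± 0.09 and 0.51 ± 0.11 log2 (SE), with adjusted p of 0.209 and 0.329 in limma. Unlike Cdkn1a, Phlda3 differed little between the strains in its irradiation difference (-0.04 ± 0.16 log2, CD169-DTR minus WT). That Cdkn1a and Phlda3 differ in this was not tested.

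**Figure D4:**
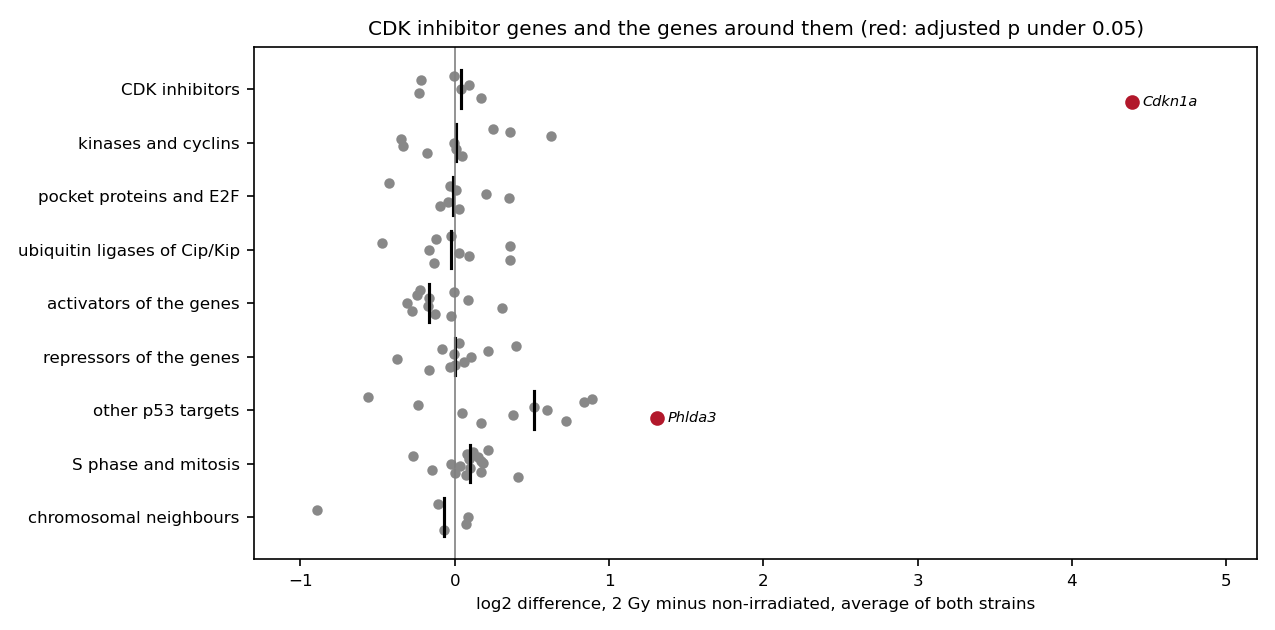
Each point is 1 measured gene at its average log2 difference between 2 Gy and non-irradiated LT-HSC (x axis), in rows for the 7 inhibitors and the 8 lists around them, with a black line at the median of the row. Red points passed at an adjusted p under 0.05, which Cdkn1a at 4.39 and Phlda3 at 1.31 did.

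Of the neighbours on the chromosome, Mtap and Dmrta1 beside Cdkn2a and Cdkn2b, and Phlda2, Slc22a18 and Kcnq1 beside Cdkn1c, none passed. Phlda2, an imprinted gene of the Cdkn1c cluster, had the smallest unadjusted p. It was at 11.60 and 11.18 in CD169-DTR 2 Gy, 12.17 and 12.01 in CD169-DTR non-irradiated, 10.12 and 10.46 in WT 2 Gy and 11.40 and 11.34 in WT non-irradiated LT-HSC. The average difference was -0.89 ± 0.13 log2 (SE, adjusted p = 0.209 in limma), with the irradiated arrays lower in both strains. Kcnq1 and Dmrta1 had 0.09 ± 0.09 and 0.07 ± 0.12 log2.

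The genes whose values ran most like those of Cdkn1a were found by Pearson r over the 8 arrays, among 1068 genes with an SD of at least 0.5 log2. They were Cip2a (0.958), an inhibitor of the phosphatase PP2A, Mmp2 (0.957), a matrix metalloproteinase, Kif20b (0.948), a mitotic kinesin, Phlda3 (0.929) and Gem (0.907), a small GTPase. The arrays fall into an irradiated and a non-irradiated cluster, so r mostly describes that split. For Cdkn2d they were Ilf2 (0.964), Stk39 (0.919), Dmac2l (0.918), Ints7 (0.916) and Atl3 (0.905), none of which passed for irradiation as an average of both strains.

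**Figure D5:**
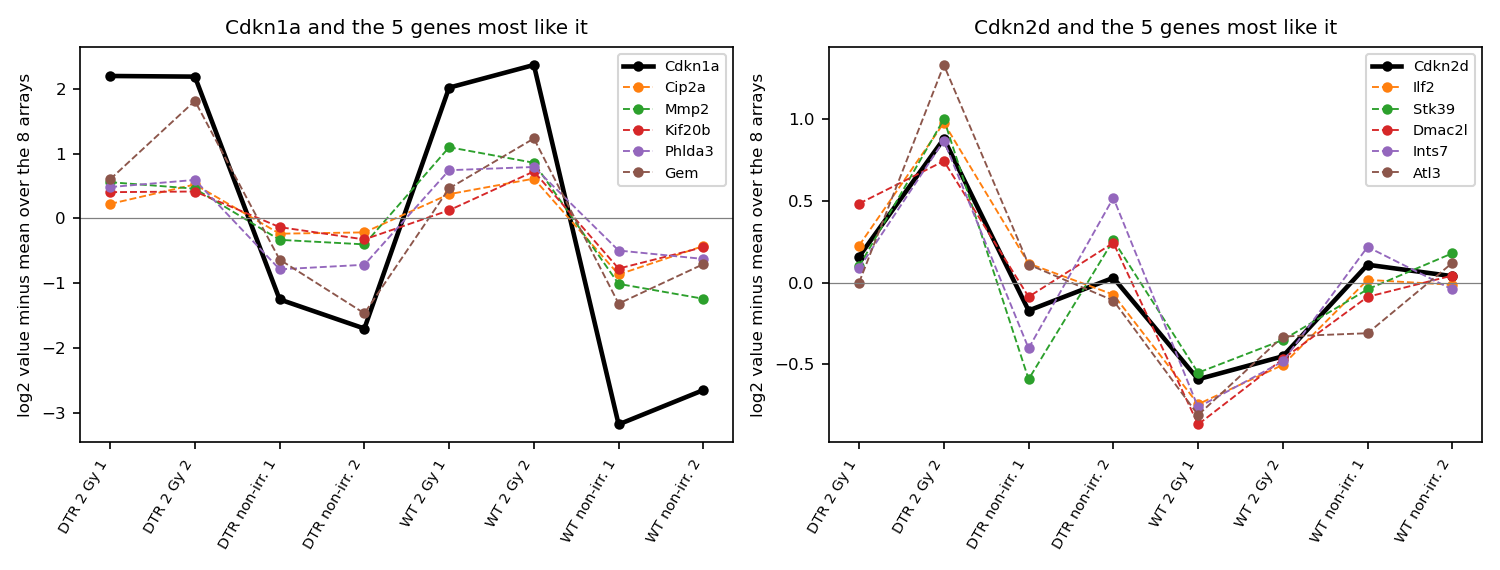
Log2 values minus the mean over the 8 arrays (y axis) are drawn for Cdkn1a (left) and Cdkn2d (right) in black, each with the 5 genes of highest r, over the arrays (x axis). The lines only join the values of a gene. Cdkn1a and its 5 genes are above 0 on the irradiated arrays and below 0 on the others, while Cdkn2d is highest on CD169-DTR 2 Gy replicate 2 (7.83).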

How the data were processed

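Total RNA of sorted LT-HSC was hybridised to Affymetrix arrays, 8 in all. The deposited values are log2 intensities per probe set that the authors made with RMA, per the submitters' processing notes; the log base was read from their range (1.8 to 18.86), and RMA versions are not given in the sources used here. Of 40161 probe sets, 30294 had 1 gene symbol in the platform annotation, 2145 had several and 7722 had none; 22546 were matched to RefSeq by Entrez ID. Each of the 7 genes has 1 probe set. A model with 4 group means was fitted with limma 3.58.1 (lmFit, eBayes; R 4.3.3), and p-values were adjusted by Benjamini-Hochberg over the 30294 probe sets, with a threshold of 0.05. The model had 4 residual degrees of freedom, so the number of arrays limits the precision, and p-values measure the spread between arrays. Alternatives were another normalization, filter, spread estimate, weighting, set of arrays and a replicate block.

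The text names the 7 genes and, from each list, the genes that passed and the 3 with the smallest unadjusted p for the average of both strains; for likeness, the 5 genes of highest r. The members and lists were chosen with earlier results of these data known. Sequences and coordinates are from RefSeq on GRCm38.p6, and the build of the array's annotation is not given in the sources used here. Replicate numbers were not taken as pairs, since correlations of same-numbered deviations ran between -0.0877 and 0.159.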

Additional observations from a re-analysis of the deposited data

Results flagged for a closer look

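Cdkn2d stood out because its arrays moved in opposite directions in the strains with no overlap, which 4.44% of all probe sets did. Both CD169-DTR 2 Gy arrays were above both CD169-DTR non-irradiated arrays, and both WT 2 Gy arrays were below both WT non-irradiated arrays. The difference between the irradiation differences was 1.185 log2 (adjusted p = 0.874 in limma), so it did not pass the test.

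Ccne2, the gene of cyclin E2, stood out in the same way, with the direction turned. It was at 10.86 and 10.84 in CD169-DTR 2 Gy, 10.91 and 10.91 in CD169-DTR non-irradiated, 10.87 and 10.86 in WT 2 Gy and 9.71 and 10.48 in WT non-irradiated LT-HSC. The difference between the irradiation differences was -0.83 log2 (adjusted p = 0.933 in limma), and 1 array, WT non-irradiated replicate 1, was the lowest by far. Groups of 2 arrays are too small for a search for outlying arrays.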

How the results depend on the processing

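The Cdkn1a rise kept its direction in every alternative run. In WT it was 5.11 log2 (adjusted p = 0.125) when only the WT arrays were fitted and 5.285 (0.0981) without both far 2 Gy arrays, an alternative chosen after seeing the data, so 0 of the 7 genes passed in either. With 1 array left out it was 4.845 to 5.375 (0.017 to 0.075), with 0 to 1 gene called. In CD169-DTR it passed with an intensity trend (3.67, adjusted p = 0.024), the filter on dim probe sets (3.67, 0.0418), all probe sets (3.67, 0.0426) and cyclic loess (3.655, 0.0451), so 1 gene was called in each. With 1 array left out it was 3.445 to 3.895 (0.0569 to 0.232). The average of both strains was 4.48 (0.0689) without both far arrays, with 0 genes called, and 4.2575 to 4.5225 with 1 array left out. The strain difference without irradiation was 1.175 to 1.705 and the difference between irradiation differences -1.705 to -1.175 with 1 array left out. The cause of these changes was not tested.

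With the replicate block, Cdkn1a differed by 5.11 log2 in WT (adjusted p = 0.0465), 3.67 in CD169-DTR (0.148), 4.39 as an average (0.0155), 1.44 between strains without irradiation, 0.00 after 2 Gy, and -1.44 between irradiation differences. The number of the 7 genes called was 1 in WT, 0 in CD169-DTR and 1 on average, as without the block; over all probe sets in WT it was 1 with the block and 3 without. Phlda3 had an adjusted p of 0.0768 with it.

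None of the other 6 genes passed in any of 588 values (smallest adjusted p = 0.108), and 30 of these turned their sign. Without both far arrays the CD169-DTR differences were 0.33 for Cdkn1b and 0.22 for Cdkn2b, and the averages -0.11 for Cdkn2a and -0.0275 for Dmrta1. Cyclic loess gave averages of -0.0419 for Cdkn2a, 0.00697 for Cdkn2d and -0.0068 for Dmrta1, and median centring -0.03 for Cdkn2a. With 1 array left out, the CD169-DTR differences were -0.51 to 0.33 for Cdkn1b, -0.4 to 0.13 for Cdkn1c, -0.225 to 0.055 for Cdkn2a and -0.31 to 0.22 for Cdkn2b. The averages were -0.0375 to 0.3825 for Cdkn1b, -0.04 to 0.115 for Cdkn2a, -0.0425 to 0.2225 for Cdkn2b, -0.1825 to 0.1775 for Cdkn2d, -0.55 to 0.015 for Aurka and -0.025 to 0.17 for Dmrta1. Between strains without irradiation they were -0.11 to 0.55 for Cdkn1b, -0.23 to 0.3 for Cdkn1c and -0.045 to 0.105 for Cdkn2a. After 2 Gy they were -0.725 to 0.115 for Cdkn1b and -0.425 to 0.105 for Cdkn2b, and between irradiation differences -0.07 to 0.46 for Cdkn1c. The filter removed Cdkn2a and Cdkn2b, and a second probe set gave no value. Over all probe sets, calls in WT ran from 0 to 16 across the alternatives (3 in the fit reported).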

Other observations

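The values of Cdkn1b and Cdkn2c were also set against 1069 genes with an SD of at least 0.5 log2, by Pearson r over the 8 arrays and with no test. For Cdkn1b the genes of highest r were n-R5s33 (0.869), Cep135 (0.867), Slc25a24 (0.862), Zfp938 (0.847) and Car5b (0.842). For Cdkn2c they were Cadps2 (0.936), Pou5f2 (0.920), Taf1a (0.910), Nrk (0.899) and Ptn (0.889). None of these 10 passed for irradiation as an average of both strains.

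Of the 25 genes whose promoter window held the p53 consensus with at most 1 mismatch, 14 were measured. Of these 12 were higher after 2 Gy as an average of both strains, with a median of 0.19 log2, beside 63.7% of all probe sets and a median of 0.06. Only Cdkn1a among the 14 passed the test. The 14 include Cdkn1a, whose promoter was shown because it rose, and Ccng1, from a list chosen with the p53 response already known. Whether the site plays a part in these values was not tested.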
